A study of Homo sapiens with 9 samples.

Results

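The transcripts described here are those of 10 genes of the epidermal growth factor receptor (EGFR) family and its direct inhibitors, taken by gene name from a table of 58929 genes. They comprised 3 receptors (EGFR, ERBB2 and ERBB3), 5 ligands (AREG, EREG, TGFA, HBEGF and EPGN) and 2 inhibitors (ERRFI1 and LRIG1). Poly(A)-selected RNA was sequenced from wild-type FaDu cells, an established line from a squamous carcinoma of the hypopharynx, so that 1 line stands for head and neck squamous cell carcinoma (HNSCC) here. There were 3 groups of 3 libraries: cells given YKL-5-124 at 250 nM, cells given samuraciclib at 250 nM, and cells given the vehicle DMSO. The treatment lasted 48 h by the protocol in the labels and 72 h by the design of the series, for all groups alike. The target of both is CDK7, which activates other CDKs of the cell cycle and, as part of TFIIH, phosphorylates RNA polymerase II. YKL-5-124 binds CDK7 covalently and samuraciclib binds it reversibly.

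EGFR, ERBB2 and ERBB3 are receptors at the cell surface that pair after a ligand binds and pass a signal to the RAS-ERK and PI3K-AKT pathways. The ligands are made as membrane proteins and are cut free by metalloproteases such as ADAM17. AREG, EREG, TGFA, HBEGF and EPGN bind EGFR, HBEGF and EREG also bind ERBB4, ERBB3 binds neuregulins, and ERBB2 has no known ligand and acts as a partner of the others. ERRFI1 (also known as MIG6) binds the kinase domain of EGFR and blocks it, and LRIG1 is a membrane protein that promotes the removal of receptors of the family. In squamous carcinomas of the head and neck EGFR is commonly abundant and is the target of the antibody cetuximab.

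The libraries held 18264302 to 24613892 counts with YKL-5-124, 19346587 to 22111350 with samuraciclib and 18096180 to 28018126 with DMSO. All 11 markers of squamous epithelium were tested, and their summed level was 6586 to 7096 CPM (counts put on one scale with TMM factors) with YKL-5-124, 7073 to 7474 CPM with samuraciclib and 5976 to 6302 CPM with DMSO, whose part in the results was not tested. Markers of fibroblasts and of leukocytes did not exceed 6.12 and 4.48 CPM in sum in any library, with LUM and TYROBP at 0 in all 9. These sums came mostly from COL1A1 and CD14. Those of endothelium summed to 20.0 to 32.1 CPM with KDR at 0 throughout. Most of that sum was CDH5, at 18.7 CPM or more in every library. CDH5 was lower with samuraciclib than with DMSO (log2 fold change -0.504, adjusted p = 5.69e-05, edgeR). With YKL-5-124 its change was -0.18 (adjusted p = 0.0655), and its part in the results was not tested. In 1 library of each group (YKL-5-124 2, samuraciclib 2 and DMSO 3) the 7SL RNA gene RN7SL2 stood at 24.9 to 59.3 CPM, against 696 to 981 CPM in the other 6. Its part in the results was not tested, but calls that change without these 3 libraries are given.

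EGFR and the ligands AREG and EREG were the most abundant of the 10 transcripts per unit of length (CPM per kilobase of the gene model). With YKL-5-124, AREG stood at 92.6 ± 4.8, EREG at 74.6 ± 6.5 and EGFR at 58.4 ± 1.6 CPM per kilobase (SD, n = 3). With samuraciclib these levels were 80.1 ± 2.7 for AREG, 72.1 ± 5.8 for EREG and 64.3 ± 3.4 for EGFR. With DMSO they were 79.8 ± 2.8 for AREG, 82.0 ± 5.0 for EREG and 67.2 ± 1.5 for EGFR. On this scale AREG and EREG overlapped in DMSO libraries, while every AREG value lay above every EREG value within each inhibitor group. With samuraciclib the margin was narrow, the lowest AREG value being 77.0 and the highest EREG value 76.2. The order rests on gene model lengths of 1648 bases for AREG and 5717 for EREG, and which isoforms were expressed was not tested. In counts AREG was below EREG in every library. EREG and EGFR overlapped only with samuraciclib. Among 12874 protein-coding genes tested, AREG ranked 347th with YKL-5-124, 442nd with samuraciclib and 483rd with DMSO, and EGFR ranked 682nd, 628th and 605th in the same order.

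The remaining genes followed at a distance. TGFA was the next highest in all groups, at 14.9 ± 0.58 CPM per kilobase with YKL-5-124, 18.5 ± 1.1 with samuraciclib and 15.5 ± 0.35 with DMSO (SD, n = 3). ERRFI1 came next with either inhibitor, at 10.7 ± 0.28 with YKL-5-124 and 14.7 ± 0.085 with samuraciclib, above all ERBB2 values of the same group, which averaged 8.95 ± 0.88 and 9.54 ± 0.51. With DMSO the ranges of ERBB2 (mean 11.3 ± 0.13) and ERRFI1 (mean 10.3 ± 0.75) touched. Below them, without overlap, came HBEGF at 4.75, 6.38 and 7.24 CPM per kilobase with YKL-5-124, samuraciclib and DMSO, and ERBB3 at 3.19, 3.14 and 3.83. LRIG1 stood at 1.23, 1.54 and 0.977 CPM per kilobase in these groups. EPGN had 3 to 13 counts per library, did not pass the filter on low counts and was not tested.

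The windows of 250 bases before the start of 5 of these genes are shown because they belong to the 3 genes that passed the test below and to the neighbouring pair AREG and EREG, whose count ratio did not overlap between groups. Windows of RefSeq (GRCh38.p14), which also hold 50 bases after the start, matched 9 of the 10 genes by symbol, all but ERBB3. They were searched on both strands for 6 motifs. The site of the FOS and JUN factor AP-1 was searched as TGACTCA. The core of the cyclic AMP response element (CRE), bound by CREB factors, was searched as TGACGT. The TATA box, a core promoter element, was searched as TATAAA. The GC box of SP1 and its relatives was searched as GGGCGG. The motif of TEAD factors, the partners of YAP, was searched as GGAATG, and that of serum response factor by its name, the CArG box. Each sequence is written from 5′ to 3′ on the gene's own strand, with matches on either strand in capitals.
AREG: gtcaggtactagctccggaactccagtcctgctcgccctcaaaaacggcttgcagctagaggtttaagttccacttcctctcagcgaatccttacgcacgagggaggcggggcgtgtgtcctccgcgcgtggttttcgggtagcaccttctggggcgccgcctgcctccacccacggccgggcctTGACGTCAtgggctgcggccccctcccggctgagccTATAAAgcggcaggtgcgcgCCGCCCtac
EREG: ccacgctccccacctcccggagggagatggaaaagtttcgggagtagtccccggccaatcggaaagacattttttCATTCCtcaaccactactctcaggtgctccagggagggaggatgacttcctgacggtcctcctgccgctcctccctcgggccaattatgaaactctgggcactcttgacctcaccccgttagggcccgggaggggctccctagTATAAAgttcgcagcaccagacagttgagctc
HBEGF: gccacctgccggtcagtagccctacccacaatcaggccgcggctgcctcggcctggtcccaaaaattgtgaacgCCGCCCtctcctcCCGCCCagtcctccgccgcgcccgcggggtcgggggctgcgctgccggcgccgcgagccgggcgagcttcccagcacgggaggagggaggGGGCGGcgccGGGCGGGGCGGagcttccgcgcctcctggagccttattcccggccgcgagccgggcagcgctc
ERRFI1: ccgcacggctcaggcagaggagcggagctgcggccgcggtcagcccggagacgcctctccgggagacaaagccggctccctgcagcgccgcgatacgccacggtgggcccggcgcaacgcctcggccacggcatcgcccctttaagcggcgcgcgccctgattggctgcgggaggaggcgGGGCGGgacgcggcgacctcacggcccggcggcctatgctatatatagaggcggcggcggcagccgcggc
LRIG1: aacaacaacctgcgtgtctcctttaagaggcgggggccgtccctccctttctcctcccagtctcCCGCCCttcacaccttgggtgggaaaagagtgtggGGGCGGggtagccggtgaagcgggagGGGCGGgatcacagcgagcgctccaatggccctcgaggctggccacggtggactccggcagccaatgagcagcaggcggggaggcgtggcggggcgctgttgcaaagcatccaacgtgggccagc
The AREG window lies at chr4:74444886-74445135 on the plus strand, and EREG at chr4:74364895-74365144 on the plus strand. HBEGF lies at chr5:140346604-140346853 on the minus strand, ERRFI1 at chr1:8026310-8026559 on the minus strand, and LRIG1 at chr3:66501122-66501371 on the minus strand. With the start counted as 0, the AREG window held TATAAA at -29 and the CRE core on both strands at -65 and -63, in overlap, and EREG held TATAAA at -32. EPGN, the other gene of this chromosome 4 cluster among the 10, held TATAAA at -29, and no other member did, while 12% of 27305 promoter windows of the same length hold it. A GC box was present in 6 of the 9 windows, against 44.6% of all. It occurred 5 times in HBEGF, of which 2 share 1 base, 3 times in LRIG1, and once each in ERRFI1 and AREG. GGAATG was found in EREG alone (14% of all windows) and the CRE core in AREG alone (8.32% of all). The letters of AP-1 (4.92% of all) and the CArG box (1.29% of all) were not in any of the 9 windows, which says nothing of the factors concerned.

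Of the 10 genes, 9 were tested, with a gene called where edgeR's quasi-likelihood F-test gave a Benjamini-Hochberg adjusted p below 0.05 over all 16065 genes tested and a log2 fold change beyond 0.5 in size. With YKL-5-124 against DMSO, 1 fell (HBEGF) and none rose, where 21.8% of all genes tested were called (11.9% higher and 9.93% lower). With samuraciclib against DMSO, 2 rose (ERRFI1 and LRIG1) and none fell, where 17.7% of all genes were called (8.17% higher and 9.55% lower). Between YKL-5-124 and samuraciclib no member was called by edgeR or DESeq2 (background 6.92%, with 4.46% higher and 2.46% lower), although 6 of 9 had an unadjusted p below 0.05. At the adjusted p alone, 2 members were higher and 4 lower with YKL-5-124 against DMSO, where 49.3% of all genes passed (24.1% higher and 25.2% lower), and 3 were higher and 3 lower with samuraciclib, where 44.1% passed (21% higher and 23.1% lower). Between the inhibitors 1 was higher and 4 lower with YKL-5-124, where 24.9% passed (11.8% higher and 13.2% lower). The groups did not overlap for 6, 6 and 5 of the 9 tested members in these 3 comparisons, against 56.8%, 52.9% and 38.7% of all genes. As DMSO served both inhibitors, the changes against it share their control libraries. In bulk libraries, fewer cells that express a gene and less RNA per cell cannot be told apart.

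**Figure D1:**
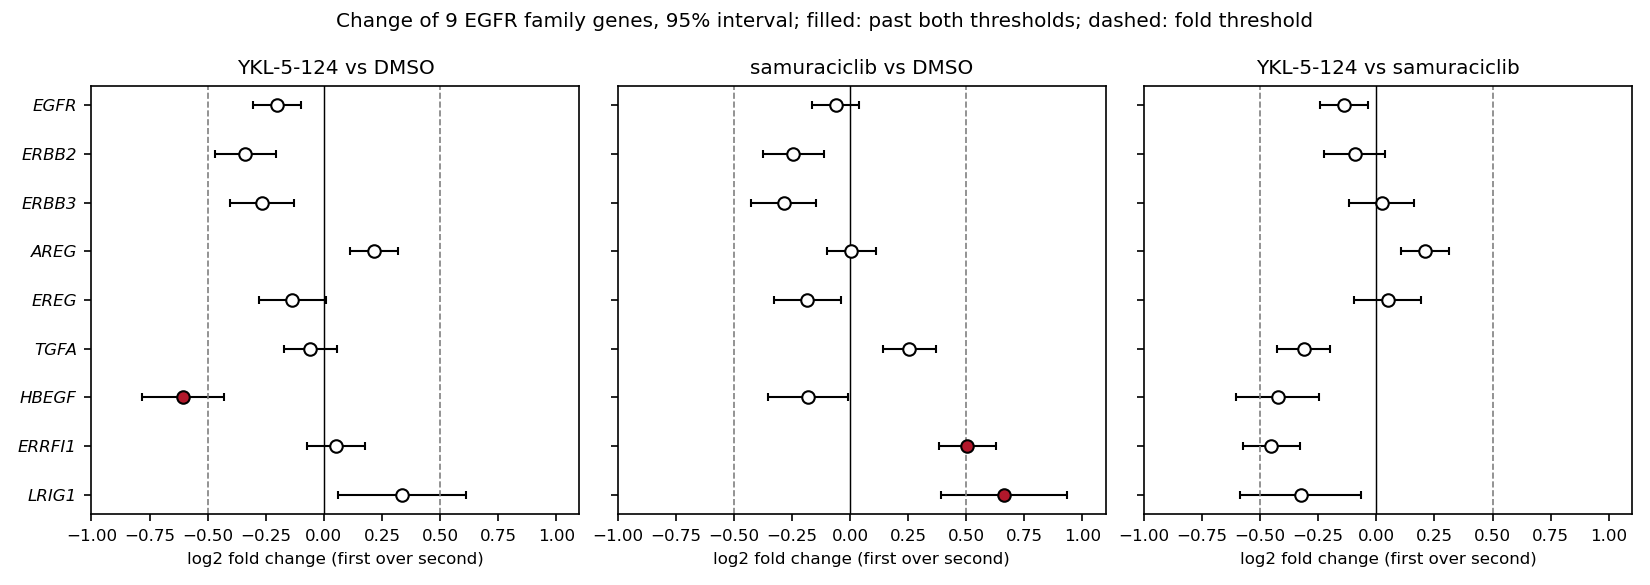
Log2 fold changes (x axis, first group over second) of the 9 tested genes in the 3 comparisons. Points are edgeR estimates, bars their 95% intervals, dashed lines the fold threshold of 0.5, and filled points the 3 changes past both thresholds, HBEGF at -0.61 with YKL-5-124 and ERRFI1 at 0.504 and LRIG1 at 0.66 with samuraciclib.

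At the adjusted p alone, ERBB2 and ERBB3 were lower with both inhibitors and EGFR with YKL-5-124, and no receptor was called. EGFR (chromosome 7, 55019021 to 55211628) had 734, 749 and 710 CPM with YKL-5-124, 840, 819 and 759 CPM with samuraciclib, and 848, 820 and 856 CPM with DMSO. All YKL-5-124 libraries lay below all others, whereas samuraciclib and DMSO libraries overlapped. The log2 fold change of EGFR was -0.20 ± 0.049 (SE; adjusted p = 0.00210, edgeR) with YKL-5-124 and -0.062 ± 0.049 (adjusted p = 0.318) with samuraciclib, whose 95% interval ran from -0.16 to 0.040. YKL-5-124 against samuraciclib gave -0.14 (adjusted p = 0.0425, interval -0.24 to -0.038), with an adjusted p of 0.0530 to 0.186 without YKL-5-124 1, YKL-5-124 3, samuraciclib 1, samuraciclib 2 or DMSO 1. Scaled by library size alone, which raises the median of all genes, EGFR with YKL-5-124 was at -0.074 (adjusted p = 0.183).

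ERBB2 and ERBB3 had a like difference under either compound. ERBB2 (chromosome 17, 39687914 to 39730426), the partner receptor without a ligand, had 97.4, 81.9 and 97.9 CPM with YKL-5-124, 98.9, 93.1 and 103.6 CPM with samuraciclib, and 117.2, 117.7 and 115.2 CPM with DMSO. Every DMSO library lay above every treated one, with a log2 fold change of -0.34 ± 0.062 (adjusted p = 0.000192, edgeR) for YKL-5-124 and -0.24 ± 0.062 (adjusted p = 0.00351) for samuraciclib. ERBB3 (chromosome 12, 56076799 to 56103505), whose own kinase activity is weak, had 27.1, 29.2 and 30.1 CPM with YKL-5-124, 28.5, 27.5 and 29.1 CPM with samuraciclib, and 34.4, 35.7 and 33.8 CPM with DMSO. Again the DMSO libraries stood above all others, and the changes were -0.26 ± 0.066 with YKL-5-124 (adjusted p = 0.00269) and -0.29 ± 0.066 with samuraciclib (adjusted p = 0.00165). A difference between the inhibitors was not detected for ERBB2 (interval -0.23 to 0.037, adjusted p = 0.298) or ERBB3 (interval -0.12 to 0.16, adjusted p = 0.848). Part of ERBB2 is overlapped by 2 genes on the opposite strand, PGAP3 over 20.9% and MIEN1 over 4.54% of its span, and whether counting used strand is not stated. PGAP3 had a log2 fold change of -0.036 with YKL-5-124 (adjusted p = 0.807) and of -0.21 with samuraciclib (adjusted p = 0.118), the value with samuraciclib being near that of ERBB2. MIEN1 had 0.62 with YKL-5-124 and 0.17 with samuraciclib, the opposite sign to ERBB2. Over all libraries PGAP3 averaged 12.2 CPM and MIEN1 27.3 CPM, both below every ERBB2 value. Their part in the ERBB2 values was not tested. EGFR made up 82.8% ± 1.4, 83.5% ± 1.3 and 81.6% ± 0.55 of the receptor transcripts per kilobase with YKL-5-124, samuraciclib and DMSO (SD, n = 3), a share that differed by little more than its spread. ERBB3 took 4.52% ± 0.28, 4.08% ± 0.24 and 4.66% ± 0.21 in these groups, without overlap between samuraciclib and DMSO.

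**Figure D2:**
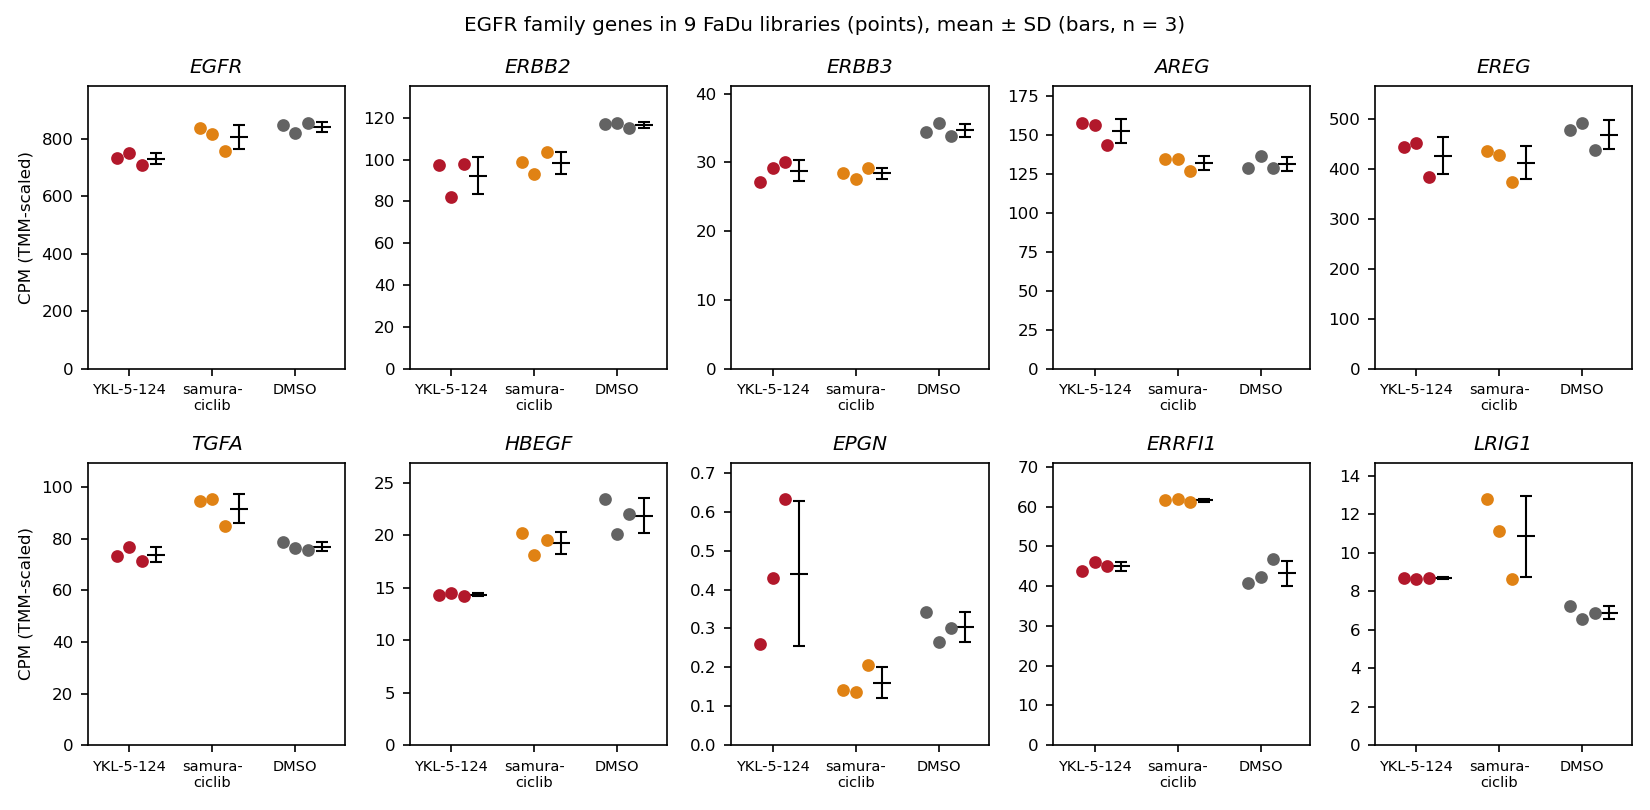
CPM (y axis, from 0, TMM-scaled) of each of the 10 genes in every library (points), by group, with the mean ± SD (bars, n = 3). The 3 YKL-5-124 libraries have the lowest HBEGF (14.2 to 14.5 CPM), the 3 samuraciclib libraries the highest ERRFI1 (61.2 to 61.8 CPM) and TGFA (85.2 to 95.4 CPM), and LRIG1 with samuraciclib spreads over 8.63 to 12.8 CPM.

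Of the ligands, HBEGF fell with YKL-5-124, and AREG and TGFA differed between the compounds. HBEGF (chromosome 5, 140332843 to 140346631), the heparin-binding ligand, had 14.3, 14.5 and 14.2 CPM with YKL-5-124, 20.2, 18.1 and 19.5 CPM with samuraciclib, and 23.4, 20.1 and 22.0 CPM with DMSO. YKL-5-124 libraries lay below all others, and those of samuraciclib and DMSO overlapped narrowly. The fall with YKL-5-124 was -0.61 ± 0.084 on the log2 scale (1.52-fold, adjusted p = 9.46e-06, edgeR), while samuraciclib gave -0.18 ± 0.082 (adjusted p = 0.0797, interval -0.35 to -0.010). The direct difference between the compounds was -0.43 (adjusted p = 0.00136, interval -0.60 to -0.25), under the fold threshold. Scaled by library size alone, the fall with YKL-5-124 was -0.479 (adjusted p = 0.000148) and no longer called. Leaving out any 1 library kept the call, at -0.665 to -0.563.

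AREG (chromosome 4, 74445134 to 74455009), the amphiregulin gene, had 158.0, 156.3 and 143.6 CPM with YKL-5-124, 134.4, 134.6 and 126.8 CPM with samuraciclib, and 128.8, 136.9 and 128.9 CPM with DMSO. The YKL-5-124 libraries stood above the other 6, which overlapped. Its log2 fold change was 0.22 ± 0.049 with YKL-5-124 (adjusted p = 0.00143, edgeR), 0.0053 ± 0.050 with samuraciclib (adjusted p = 0.942, interval -0.099 to 0.11) and 0.21 between the compounds (adjusted p = 0.00468). TGFA (chromosome 2, 70447280 to 70554193), the transforming growth factor alpha gene, showed the other pattern, with 73.3, 77.0 and 71.3 CPM with YKL-5-124, 94.7, 95.4 and 85.2 CPM with samuraciclib, and 78.9, 76.4 and 75.6 CPM with DMSO. Here the samuraciclib libraries lay above the others. The log2 fold change of TGFA was 0.25 ± 0.054 with samuraciclib (adjusted p = 0.000865), -0.058 ± 0.055 with YKL-5-124 (adjusted p = 0.405, interval -0.17 to 0.057) and -0.31 for YKL-5-124 against samuraciclib (adjusted p = 0.000456). None of these passed the fold threshold.

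EREG (chromosome 4, 74365143 to 74388751), the epiregulin gene, had 443, 452 and 384 CPM with YKL-5-124, 435, 427 and 374 CPM with samuraciclib, and 477, 492 and 437 CPM with DMSO. It was lower with samuraciclib by a log2 fold change of -0.18 ± 0.068 (adjusted p = 0.0355, edgeR), a barely separated pair of groups, and had a change of -0.14 ± 0.068 with YKL-5-124 (adjusted p = 0.108), where the groups overlapped. The difference with samuraciclib rested on single libraries, at -0.12 without samuraciclib 3 (adjusted p = 0.204), -0.15 without DMSO 2 (0.145), -0.17 without DMSO 1 (0.0962) and -0.23 without DMSO 3 (0.0167). With YKL-5-124 it was -0.19 without DMSO 3 (adjusted p = 0.0480), and -0.23 without the 3 libraries of low RN7SL2 (adjusted p = 0.00604). The compounds were not told apart for EREG (interval -0.094 to 0.19). EPGN, the epigen gene on the same chromosome, had 0.26, 0.43 and 0.63 CPM with YKL-5-124, 0.14, 0.14 and 0.21 CPM with samuraciclib, and 0.34, 0.27 and 0.30 CPM with DMSO, too few counts for a test.

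EPGN, EREG, AREG and a further ligand gene, BTC (betacellulin), lie in this order on chromosome 4, and 56.4 kb separate the end of EREG from the start of AREG. The ratio of AREG to EREG counts in a library does not depend on scaling, and it was looked at after the values were seen. It was 0.356, 0.346 and 0.374 with YKL-5-124, 0.309, 0.315 and 0.339 with samuraciclib, and 0.270, 0.278 and 0.295 with DMSO. The 3 groups did not overlap in any pair. The ratio of means was 1.28 for YKL-5-124 over DMSO, 1.14 for samuraciclib over DMSO and 1.12 for YKL-5-124 over samuraciclib. Each comparison had p = 0.1 in a two-sided exact permutation test (n = 3 per group; 0.1 after adjustment over the 3), which is the smallest p this design allows. As a share of the 5 ligands per kilobase, AREG took 49.5% ± 0.70 with YKL-5-124, 45.2% ± 0.98 with samuraciclib and 43.2% ± 0.99 with DMSO (SD, n = 3). EREG took 39.8% ± 1.0, 40.7% ± 1.1 and 44.4% ± 1.1 in these groups. TGFA took 7.97% ± 0.31, 10.4% ± 0.13 and 8.41% ± 0.31, and HBEGF 2.55% ± 0.14, 3.61% ± 0.30 and 3.93% ± 0.39. AREG and EREG together thus made up most of the ligand transcripts in every group. Per kilobase, AREG was above EREG in mean share with each inhibitor, and the pair lay within about their spread with DMSO. By counts, AREG was below EREG in every library.

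**Figure D3:**
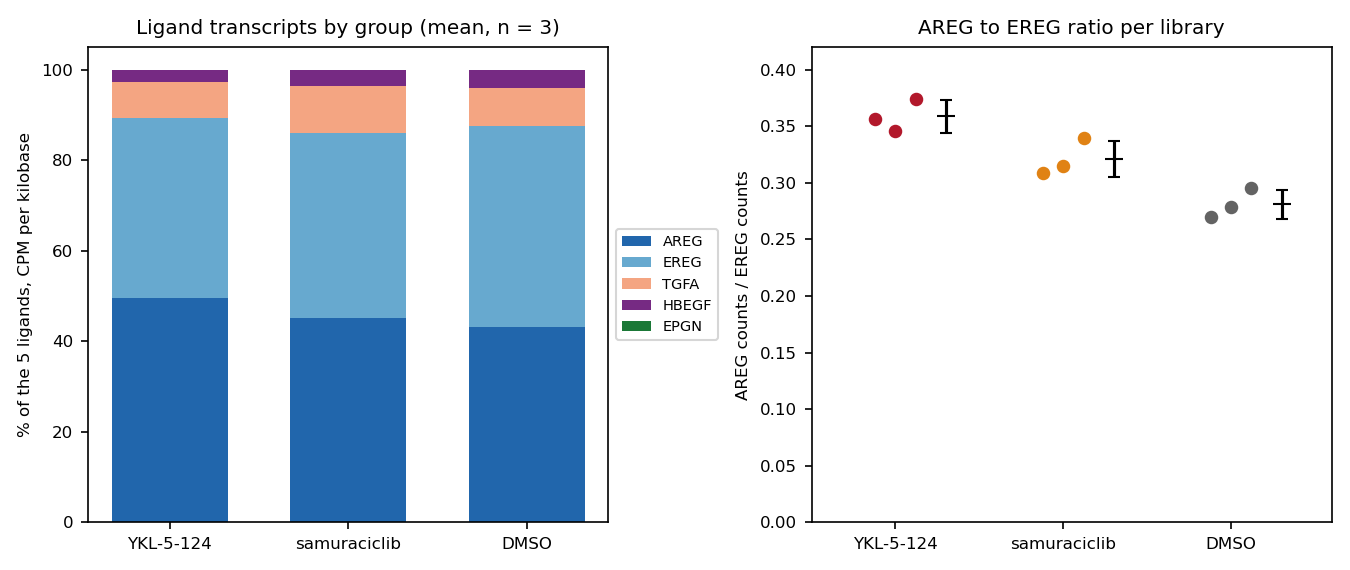
Left, mean share of each ligand in the 5 ligand transcripts (y axis, % of CPM per kilobase, n = 3 per group); right, AREG counts over EREG counts per library (y axis, from 0; points are libraries, bars the mean ± SD, n = 3). AREG takes 49.5%, 45.2% and 43.2% with YKL-5-124, samuraciclib and DMSO, and the count ratio does not overlap between groups (0.346 to 0.374, 0.309 to 0.339 and 0.270 to 0.295).

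Both inhibitors of the receptors rose with samuraciclib. ERRFI1 (chromosome 1, 8004404 to 8026308) had 43.7, 46.0 and 45.1 CPM with YKL-5-124, 61.7, 61.8 and 61.2 CPM with samuraciclib, and 40.7, 42.3 and 46.8 CPM with DMSO. The samuraciclib libraries lay above all others, and those of YKL-5-124 fell within the DMSO range. The log2 fold change of ERRFI1 was 0.504 ± 0.059 with samuraciclib (41.8% higher, adjusted p = 1.56e-06, edgeR), 0.051 ± 0.060 with YKL-5-124 (adjusted p = 0.502, interval -0.074 to 0.18) and -0.45 ± 0.058 for YKL-5-124 against samuraciclib (adjusted p = 2.75e-05). The rise stood close to the fold threshold: it was 0.461 without DMSO 1, 0.485 without DMSO 2 and 0.495 with no filter on low counts, none of which is called.

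LRIG1 (chromosome 3, 66378797 to 66501263) had 8.69, 8.62 and 8.71 CPM with YKL-5-124, 12.8, 11.1 and 8.63 CPM with samuraciclib, and 7.21, 6.55 and 6.86 CPM with DMSO. Every treated library lay above every DMSO library, and samuraciclib 3 stood at the level of YKL-5-124. LRIG1 rose by 0.66 ± 0.13 on the log2 scale with samuraciclib (1.58-fold, adjusted p = 0.000378, edgeR), with a value of 0.528 without samuraciclib 1 and 0.80 without samuraciclib 3. With YKL-5-124 the change was 0.34 ± 0.13 (adjusted p = 0.0409), with an adjusted p of 0.0604 to 0.116 without any 1 library of YKL-5-124 or DMSO. The difference between the compounds was -0.33 (adjusted p = 0.0644, interval -0.59 to -0.064), and ran from -0.47 without samuraciclib 3 (adjusted p = 0.00792) to -0.19 without samuraciclib 1 (adjusted p = 0.332). A gene on the opposite strand, SLC25A26, overlaps 7.61% of LRIG1 and had log2 fold changes of 0.027 with YKL-5-124 and -0.094 with samuraciclib.

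The remaining receptor and ligands of the family were mostly rare, and 4 of 7 were tested. BTC, a ligand of EGFR and ERBB4, had 7.65, 7.80 and 7.44 CPM with YKL-5-124, 5.10, 5.70 and 6.37 CPM with samuraciclib, and 3.78, 3.89 and 5.09 CPM with DMSO. It rose with YKL-5-124 by 0.82 ± 0.14 on the log2 scale (adjusted p = 7.65e-05, edgeR). With samuraciclib the change of BTC was 0.41 ± 0.14 (adjusted p = 0.0276), an adjusted p that was 0.0533 to 0.111 without samuraciclib 2, samuraciclib 3, DMSO 1 or DMSO 2. It passed both thresholds without DMSO 3 (0.574) and without the 3 libraries of low RN7SL2 (0.576). NRG1, the gene of neuregulin 1, a ligand of ERBB3, had 88.4, 91.0 and 92.0 CPM with YKL-5-124, 117.3, 114.1 and 117.9 CPM with samuraciclib, and 105.6, 109.1 and 111.3 CPM with DMSO. Its groups did not overlap in any pair, with log2 fold changes of -0.27 ± 0.045 for YKL-5-124 (adjusted p = 9.74e-05), 0.099 ± 0.045 for samuraciclib (adjusted p = 0.0831) and -0.36 between the compounds (adjusted p = 2.00e-05). NRG2 fell with either compound, by 1.14 with YKL-5-124 (adjusted p = 5.79e-05) and by 0.67 with samuraciclib (adjusted p = 0.00517), at 1.40 to 4.01 CPM. NRG4 was not called in any comparison. ERBB4, EGF and NRG3 had 2 to 8, 1 to 14 and 0 to 1 counts per library and were not tested.

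Among 10 genes of ligand shedding, 2 rose and 1 fell with YKL-5-124 against DMSO, 2 rose and none fell with samuraciclib, and 1 was higher with YKL-5-124 than with samuraciclib, where 21.8%, 17.7% and 6.92% of all genes were called in these comparisons. RHBDF1, an inactive rhomboid (iRhom) that carries ADAM17 to the cell surface, rose on the log2 scale by 0.70 ± 0.068 with YKL-5-124 (adjusted p = 1.35e-07, edgeR) and by 0.73 ± 0.068 with samuraciclib (adjusted p = 1.10e-07). TIMP3, an inhibitor of metalloproteases, rose by 1.59 ± 0.19 with YKL-5-124 (adjusted p = 1.59e-06) and by 0.95 ± 0.20 with samuraciclib (adjusted p = 0.000778), at 1.26 to 5.69 CPM. Its difference between the compounds was 0.64 (adjusted p = 0.0104), and 0.543 and no longer called without YKL-5-124 3. ADAM12, a metalloprotease, fell by 0.77 with YKL-5-124 (adjusted p = 2.25e-05) and had a change of -0.27 with samuraciclib (adjusted p = 0.0569). Between the compounds it stood at -0.497 (adjusted p = 0.00454), called without YKL-5-124 3 (-0.551) or samuraciclib 3 (-0.594), with DESeq2 (-0.509), with RLE scaling (-0.504) and with no filter (-0.506). ADAM17 itself averaged 30.3, 33.4 and 29.0 CPM with YKL-5-124, samuraciclib and DMSO and was not called. Its log2 fold change was 0.065 with YKL-5-124 (adjusted p = 0.467, edgeR) and 0.20 with samuraciclib (adjusted p = 0.0249). At the adjusted p alone 5 of the 10 passed with YKL-5-124 and 7 with samuraciclib, where 49.3% and 44.1% of all genes did. Among these, ADAM9 (0.37 with YKL-5-124 and 0.44 with samuraciclib) and ADAM10 (0.29 and 0.23) were higher with both. ADAM15 (0.19) and FRMD8 (0.18) were higher with samuraciclib at that p. The median log2 fold change of this list was 0.087 with YKL-5-124 and 0.20 with samuraciclib, against 0.014 and 0.0012 over all genes tested.

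In the adaptors and the RAS-ERK cascade, 16 genes were tested, of which 1 rose and 1 fell with YKL-5-124 and 2 rose and 1 fell with samuraciclib, against 21.8% and 17.7% of all genes called. SOS2, an exchange factor that activates RAS, rose with YKL-5-124 (0.58 ± 0.086, adjusted p = 1.81e-05) and with samuraciclib (0.60 ± 0.086, adjusted p = 1.77e-05, edgeR). GAB1, a docking protein of EGFR signalling, rose with samuraciclib (0.65 ± 0.095, adjusted p = 2.30e-05) and had a change of 0.43 with YKL-5-124 (adjusted p = 0.00111). ARAF, a RAF kinase, fell with both, by 0.67 with YKL-5-124 (adjusted p = 2.30e-07) and by 0.76 with samuraciclib (adjusted p = 6.77e-08). No other of the 16 was called against DMSO and none between the compounds, where DESeq2 called none. Between the compounds 8 had an unadjusted p below 0.05 and 5 passed the adjusted p alone, where 24.9% of all genes did. Of 11 genes of the PI3K, AKT, PLC and STAT branch, MTOR fell with YKL-5-124, by 0.56 (adjusted p = 3.54e-08), and by 0.43 and no longer called when scaled by library size alone. With samuraciclib none of the 11 was called by edgeR or DESeq2, with MTOR at -0.41 (adjusted p = 2.52e-06, edgeR). An unadjusted p below 0.05 was found for 9. At the adjusted p alone 8 passed, some higher and some lower, where 44.1% of all genes passed.

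Of 22 genes of receptor ubiquitination, sorting and dephosphorylation, 2 rose and 1 fell with YKL-5-124 and 5 rose and 2 fell with samuraciclib, 3 in all without DMSO 3. Of all genes, 21.8% were called with YKL-5-124 and 17.7% with samuraciclib. CBLB, a ubiquitin ligase of activated receptors, rose by 0.95 ± 0.13 with YKL-5-124 (adjusted p = 1.09e-05, edgeR) and by 0.55 ± 0.14 with samuraciclib (adjusted p = 0.00309). The call with samuraciclib was lost without DMSO 3 (0.470) and without samuraciclib 3 (0.455). CBLC, a related ligase of epithelia, fell with samuraciclib by 0.98 (adjusted p = 4.22e-08), to 14.3 to 17.2 CPM, against 29.5 to 33.1 CPM with DMSO. With YKL-5-124 it had 21.1 to 23.1 CPM and a change of -0.497, just short of the fold threshold and past it without YKL-5-124 3 (-0.537), DMSO 2 (-0.521) or DMSO 3 (-0.532), with DESeq2 (-0.509), RLE scaling (-0.501) or no filter (-0.515), and without the 3 libraries of low RN7SL2 (-0.510). PTPRK, a receptor phosphatase that acts on EGFR, rose with samuraciclib by 0.57 ± 0.042 (adjusted p = 5.66e-09) and had a change of 0.41 with YKL-5-124. SOCS3, a feedback inhibitor of cytokine signalling, fell with YKL-5-124 by 0.94 (adjusted p = 3.28e-09) and with samuraciclib by 0.53 (adjusted p = 4.11e-06), the second call lost without DMSO 3 (-0.492). LRIG3, a relative of LRIG1, rose by 0.54 with YKL-5-124 (adjusted p = 0.000660) and by 0.54 with samuraciclib (adjusted p = 0.000822). Neither call held without DMSO 3 (0.485 with YKL-5-124 and 0.482 with samuraciclib), nor that of YKL-5-124 without YKL-5-124 3 (0.455). NEDD4L, another ubiquitin ligase, rose with samuraciclib by 0.51 (adjusted p = 3.47e-07), and stood at 0.492 without samuraciclib 2 and 0.494 without DMSO 3, neither of them called. With YKL-5-124 its change was 0.44 (adjusted p = 1.53e-06). PTPRJ, a receptor phosphatase, rose with samuraciclib by 0.62 (adjusted p = 0.000852) and had a change of 0.11 with YKL-5-124 (adjusted p = 0.541). Between the compounds only PTPRJ was called, lower with YKL-5-124 at a log2 fold change of -0.51 (adjusted p = 0.00768), and not without YKL-5-124 3 (-0.405) or samuraciclib 1 (-0.441).

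The immediate targets and feedback genes of ERK fell in part. Of 16, 8 fell and none rose with YKL-5-124, where 9.93% of all genes were called lower, and 4 fell and none rose with samuraciclib, where 9.55% were. At the adjusted p alone 14 passed with YKL-5-124 and 12 with samuraciclib, where 49.3% and 44.1% of all genes passed. Higher among these were DUSP4 (0.29 with YKL-5-124 and 0.30 with samuraciclib) and FOSL1 (0.20 and 0.17). With samuraciclib PHLDA1 (0.26) and SPRED1 (0.21) were higher too. The others that passed were lower. The transcription factor gene FOS had 146, 160 and 196 CPM with YKL-5-124, 163, 177 and 188 CPM with samuraciclib, and 503, 550 and 707 CPM with DMSO. On the log2 scale it fell by 1.81 ± 0.11 with YKL-5-124 (adjusted p = 2.15e-10, edgeR) and fell by 1.74 ± 0.11 with samuraciclib (adjusted p = 7.61e-10). EGR1, another immediate early transcription factor, fell by 2.06 with YKL-5-124 (adjusted p = 3.32e-10) and by 1.86 with samuraciclib (adjusted p = 2.31e-09). JUN, the partner of FOS in AP-1, fell by 1.32 with YKL-5-124 (adjusted p = 6.92e-10) and by 0.94 with samuraciclib (adjusted p = 7.28e-08). DUSP6, the phosphatase that turns off ERK, fell by 0.76 with YKL-5-124 (adjusted p = 6.14e-08). With samuraciclib its change was -0.501 (adjusted p = 1.02e-05), which fell short of the fold threshold without samuraciclib 3 (-0.436), DMSO 3 (-0.424), YKL-5-124 1 (-0.498) or YKL-5-124 3 (-0.499). IER3, an early response gene, fell by 0.73 with YKL-5-124 (adjusted p = 4.78e-09) and had a change of -0.47 with samuraciclib, past the fold threshold without samuraciclib 2 (-0.514) or DMSO 2 (-0.506). The median of the list was -0.42 with YKL-5-124 and -0.13 with samuraciclib. Between the compounds none of the 16 was called by edgeR or DESeq2, and the median was -0.26. The 12 with an unadjusted p below 0.05 also passed the adjusted p alone, where 24.9% of all genes did.

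**Figure D4:**
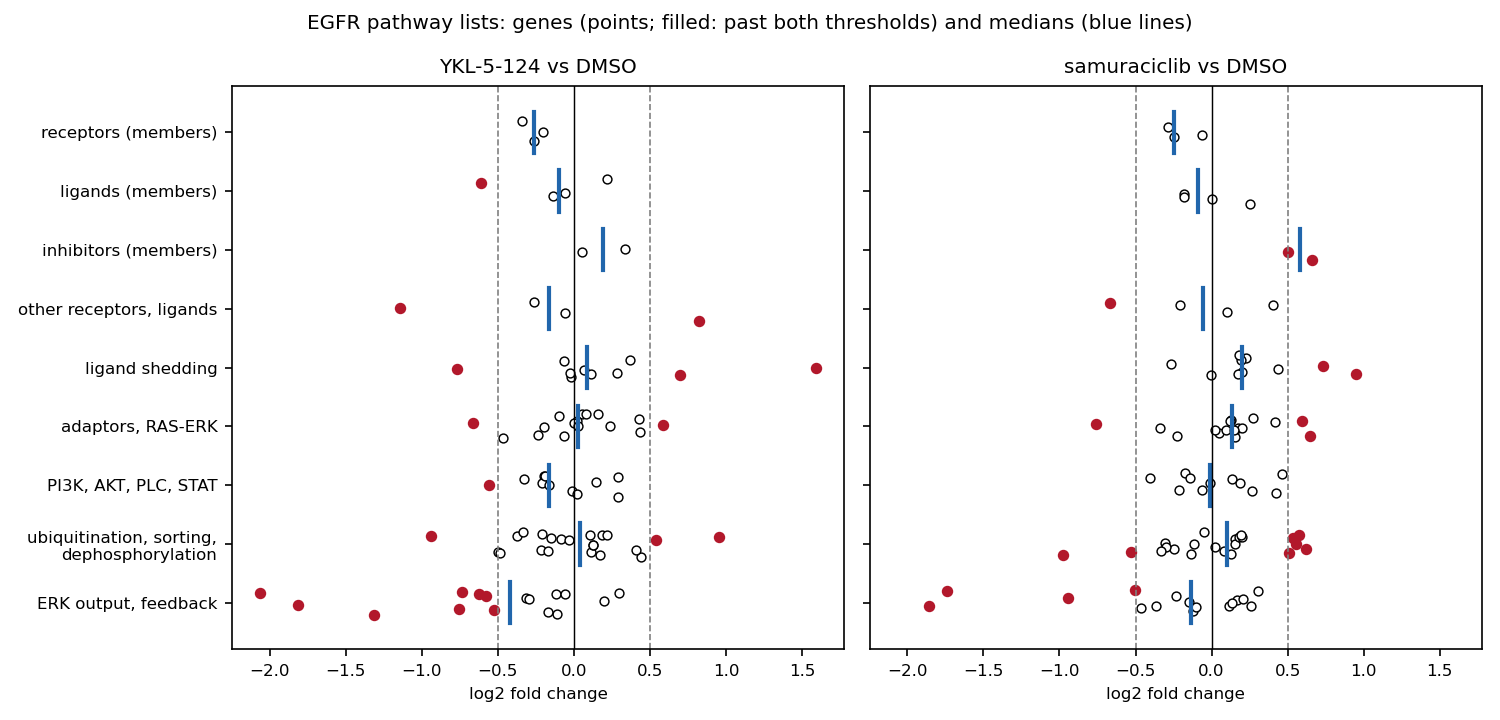
Log2 fold change (x axis) of the tested genes of each list against DMSO, with YKL-5-124 left and samuraciclib right. Points are genes, filled where past both thresholds, blue lines list medians and dashed lines the fold threshold of 0.5. In ERK output and feedback 8 of 16 genes with YKL-5-124 and 4 of 16 with samuraciclib are filled on the lower side, and the receptors, ligands and inhibitors lie mostly within the dashed lines.

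The genes most like EGFR, AREG and ERRFI1 were sought in 8916 protein-coding genes of a mean of 10 CPM or more, by Pearson's r of log2 CPM over the 9 libraries. For EGFR they were KIF14 (r = 0.978), PHACTR2 (0.976) and MYO10 (0.975). Those of AREG were SLC26A2 (0.954), TTPAL (0.952) and BCAS2 (0.950), and of ERRFI1 CACUL1 (0.991), ACSL4 (0.988) and RBMS1 (0.987). These are the highest of many values over few libraries in 3 groups, which share their group differences, and are given as a description. With the group means taken out, r was 0.976, 0.984 and 0.899 for the genes named with EGFR. It was 0.907, 0.730 and 0.844 for those of AREG, and 0.884, 0.738 and 0.935 for those of ERRFI1. As the genes were picked by r over these same 9 libraries, a high r within groups is in part set by that choice.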

How the data were processed

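FaDu cells were treated with YKL-5-124, samuraciclib or DMSO in 3 replicates per group. The submitters' processing notes name GRCh38, the aligner HISAT2 and, for counting, featureCounts 2.0.6. The counts deposited by the authors are whole numbers of fragments per gene, not normalized and not filtered. Another column of that table, gene length in bases, was used here for CPM per kilobase. The annotation release and the strand setting are not stated.

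Of 58929 genes, 25347 had no count, and 16065 passed filterByExpr of edgeR 4.0.16 (R 4.3.3). Counts were scaled by TMM, and groups were compared by glmQLFit and glmQLFTest, two-sided, in 1 fit of 9 libraries without covariates. P-values were adjusted after Benjamini and Hochberg over all genes tested. SE is the size of the log2 fold change over the square root of F, and intervals are 95%. The p-values measure the spread between these libraries within groups, pooled over all groups and moderated across genes. They do not rest on the 3 libraries of each group alone. The fit was checked on simulated counts. DESeq2 1.42.0, other scalings, filters and thresholds, 2 groups alone, the replicate number as a block and each library left out were tried. Replicates were not duplicates of each other by counting noise.

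The members and lists were chosen with earlier results of these data known. All members are named, and of each other list up to 5 called genes per comparison with the smallest adjusted p, though not every one. Other receptors and ligands are named whatever their values, as are protein-coding genes on the opposite strand that overlap a member. ADAM9, ADAM10, ADAM15, ADAM17, DUSP4, FOSL1, FRMD8, PHLDA1, SPRED1 and single markers of cell types are named too, chosen after their values were seen. Other overlapping genes, of at most 38 counts in a library, are not named. Promoter windows are from RefSeq, GRCh38.p14. Protein sequences were not used here. Figures were drawn in Python 3.11.15 with matplotlib 3.10.9.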

Additional observations from a re-analysis of the deposited data

How the results depend on the processing

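Over 27 member changes (9 genes in 3 comparisons) and 19 alternatives, 495 values kept direction and call, 4 lost and 14 gained the call (the 14 with no fold threshold), and none reversed. Scaled by library size alone, no member was called with YKL-5-124 against DMSO (HBEGF at -0.479), and the median of all genes moved to 0.14 for YKL-5-124 against DMSO, 0.060 for samuraciclib against DMSO and 0.077 between the compounds. The share of rises among all calls was then 72.7%, 57.1% and 79.5%, against 54.5%, 46.1% and 64.5% with TMM. That scaling and TMM differ by construction in the library sizes used. With no filter on low counts, 1 member was called with samuraciclib (LRIG1 at 0.65, and not ERRFI1 at 0.495), for which the cause was not tested. With no fold threshold 6 members passed with YKL-5-124, 6 with samuraciclib and 5 between the compounds, and 7919, 7087 and 4003 of all genes. At an adjusted p below 0.01, 696 genes were called between the compounds, against 1112. Leaving out each library gave 1 member with YKL-5-124, 1 to 2 with samuraciclib and 0 between the compounds, and 3292 to 3617, 2662 to 2887 and 907 to 1093 of all genes. The ratio of mean AREG to EREG ratios for YKL-5-124 over DMSO was 1.33 in the 6 libraries without low RN7SL2, against 1.28 in all. That comparison and the leave-one-out values of the ratio were chosen after seeing the data. Same-numbered libraries deviated together with r of -0.056 to 0.17, so the numbers were not read as pairs. With the replicate block 1, 2 and 0 members were called. The highest r between groups were those among the 3 libraries of low RN7SL2. They were 0.173 for YKL-5-124 2 with samuraciclib 2, 0.148 for YKL-5-124 2 with DMSO 3 and 0.146 for samuraciclib 2 with DMSO 3. Neither the main fit nor the replicate block models that set. Of the other lists, scaling by library size alone with YKL-5-124 against DMSO gave 5 calls in place of 8 in ERK output and feedback, 5 in place of 3 in ubiquitination, sorting and dephosphorylation, 4 in place of 2 in the adaptors and RAS-ERK cascade, and 0 in place of 1 in the PI3K branch. With samuraciclib it ended the calls of SOCS3 (-0.473) and DUSP6 (-0.442). DUSP6 was also not called with RLE scaling (-0.498), a mean count of at least 50 (-0.481) or only the 2 groups compared (-0.498). CBLC was higher with YKL-5-124 than with samuraciclib with library size alone (0.551), without YKL-5-124 2 (0.502) and without samuraciclib 3 (0.551). PTPRJ was not called between the compounds with library size alone (-0.444) or a mean count of at least 50 (-0.496). Without the 3 libraries of low RN7SL2, NEDD4L (0.475), SOCS3 (-0.471) and DUSP6 (-0.478) with samuraciclib and LRIG3 with YKL-5-124 (0.493) were not called, and BTC with samuraciclib was (0.576). Scaled by library size alone, ERBB3 with YKL-5-124 (-0.14) and EREG with samuraciclib (-0.13) were past no threshold, at adjusted p of 0.0910 and 0.140. EPGN had 3 to 13 counts per library, too few for a test.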
